A study of Mus musculus with 60 samples.

Results

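The 8 genes described here encode the pore-forming alpha1 subunits of voltage-gated calcium channels found in brain neurons, and were chosen by name from the 35889 genes to which transcripts were assigned. They were Cacna1a (P/Q-type), Cacna1b (N-type), Cacna1e (R-type), Cacna1c and Cacna1d (both L-type), and Cacna1g, Cacna1h and Cacna1i (all T-type). The libraries were bulk RNA-seq of neurons sorted by flow cytometry for NeuN from Ai14:cFos-TRAP2 mice, in which tamoxifen-inducible Cre driven by the Fos locus switches on the tdTomato reporter. Mice of both sexes, 8 to 16 weeks old, self-administered intravenous cocaine (0.5 mg/kg per infusion) and sucrose pellets (15 mg) on alternating days, then underwent extinction and a cue-induced seeking session for each reward. Cells active during cocaine seeking were tagged with 4-hydroxytamoxifen (50 mg/kg), and the mice were killed 60 min after sucrose seeking.

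The cocaine-seeking ensemble was sorted as tdTomato+, the sucrose-seeking ensemble as cFos+, the overlapping ensemble as positive for both and the non-ensemble as negative for both, so the ensembles differ in tag and in time since activation as well as in reward. Each of these 4 populations had 3 libraries per sex in nucleus accumbens (NAc) and in medial prefrontal cortex (mPFC), 48 in all, and every library pooled 3 mice. A further 12 libraries carry the label naive, 3 per sex and region. Their labels list the same genotype and the same dual self-administration, and what naive means was not given in the sources used here.

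An alpha1 subunit forms the pore, the voltage sensor and most drug binding sites of its channel, and auxiliary alpha2delta and beta subunits set how much channel reaches the membrane and how it gates. P/Q- and N-type channels trigger transmitter release at presynaptic terminals, and R-type channels carry calcium in dendrites, spines and terminals. L-type channels couple depolarization to calcium-dependent transcription and, through Cacna1d, open at comparatively negative voltages. T-type channels open near the resting potential and support burst firing.

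Total counts per library ran from 9933361 to 24500899 (median 13723716) in the 4 populations and from 29238727 to 45299753 in the naive libraries. Several libraries went against their labels. In the libraries labelled mPFC, the summed level of 8 cortical excitatory markers was 92.3 to 1029 CPM in the 4 populations (counts relative to library size, scaled with TMM factors), against 270 to 872 CPM in their NAc libraries. In the naive libraries the same sum was 409 to 2345 CPM in mPFC and 478 to 1246 CPM in NAc. Slc17a7, the vesicular glutamate transporter of cortical projection neurons, averaged 22.8 to 70.2 CPM in the 3 female mPFC pools and 38.0 CPM in male pool 2, but 365 and 480 CPM in male pools 1 and 3, against 180 to 508 CPM in the 6 NAc pools. Female pool 2 held Ddx3y, a Y-linked gene, at an average of 14.4 CPM in NAc and 15.4 CPM in mPFC, against 0.533 to 1.54 CPM in the other female pools and 19.3 to 40.2 CPM in male pools. Astrocyte markers summed to 1706 to 5619 CPM across the NeuN-sorted libraries of the 4 populations and to 3175 to 8207 CPM in the naive ones. None of the cell type markers was at 0 counts in any library, and Ddx3y was at 0 in some female naive libraries. In bulk samples of this kind, fewer cells of a type and less RNA per cell cannot be told apart.

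Several of the genes carry pairs of equal-length exons of which a transcript takes only 1, and these exons are shown because they let a reader see how the channel pore or tail is varied within and between members. In the GRCm39 annotation, Cacna1a and Cacna1e each have a pair of 97 bases, which in Cacna1a lies in the part for the C-terminal tail near the EF-hand-like motif. Cacna1c and Cacna1d each have a pair of 104 bases for the S6 segment that lines the pore in the first domain. Bases that differ between the 2 exons of a pair are in capitals, each exon is written 5′ to 3′ on the gene's own strand, and first and second follow transcript order.
Cacna1a first exon: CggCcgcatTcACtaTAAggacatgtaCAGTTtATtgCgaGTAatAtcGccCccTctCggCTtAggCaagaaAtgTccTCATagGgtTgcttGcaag
Cacna1a second exon: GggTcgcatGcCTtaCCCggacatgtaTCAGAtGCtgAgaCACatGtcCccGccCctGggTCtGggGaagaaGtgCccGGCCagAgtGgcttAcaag
Cacna1e first exon: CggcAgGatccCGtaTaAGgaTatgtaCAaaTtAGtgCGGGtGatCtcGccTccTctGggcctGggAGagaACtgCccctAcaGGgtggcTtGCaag
Cacna1e second exon: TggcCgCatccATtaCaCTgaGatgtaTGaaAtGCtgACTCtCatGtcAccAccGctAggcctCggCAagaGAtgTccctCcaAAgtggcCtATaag
Cacna1c first exon: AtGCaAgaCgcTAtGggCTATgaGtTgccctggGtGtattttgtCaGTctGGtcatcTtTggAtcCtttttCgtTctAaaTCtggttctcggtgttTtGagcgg
Cacna1c second exon: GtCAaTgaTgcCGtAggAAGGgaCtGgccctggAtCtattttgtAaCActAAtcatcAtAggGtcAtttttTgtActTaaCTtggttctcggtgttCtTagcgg
Cacna1d first exon: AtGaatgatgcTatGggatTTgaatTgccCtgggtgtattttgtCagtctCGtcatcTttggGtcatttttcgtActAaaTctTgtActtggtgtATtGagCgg
Cacna1d second exon: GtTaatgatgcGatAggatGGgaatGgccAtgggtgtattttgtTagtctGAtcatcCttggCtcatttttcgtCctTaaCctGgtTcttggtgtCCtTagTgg
The Cacna1a exons lie at chr8:85341324-85341420 and chr8:85342203-85342299 on the + strand. The others lie on the - strand, at chr1:154293696-154293792 and chr1:154291807-154291903 for Cacna1e, chr6:118719226-118719329 and chr6:118718832-118718935 for Cacna1c, and chr14:29893913-29894016 and chr14:29893253-29893356 for Cacna1d.

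Corresponding exons were more alike between genes than the 2 exons were within a gene. The 2 exons of Cacna1a shared 60 of 97 bases, whereas its first exon shared 73 of 97 (75.3%) with the first exon of Cacna1e, and the second exons of both genes shared 72.2%. The first exons of Cacna1c and Cacna1d shared 86.5% of 104 bases and their second exons 79.8%, against 72 of 104 within Cacna1c and 82 of 104 within Cacna1d. Transcripts with the first exon held a median of 86.9% of the pair's TPM (transcript abundance corrected for length and depth) for Cacna1a in NAc (range 69.3 to 96.3%) and 87.8% in mPFC, but only 2.83% and 0.592% for Cacna1e. For Cacna1c the first exon took 60.4% in NAc and 58.1% in mPFC, and for Cacna1d it took 18.0% and 17.4%, with ranges of 8.38 to 55.6% and 6.50 to 50.9%. Each share comes from whole-transcript estimates and not from junction reads. In the annotation the second exon of Cacna1a lies only on Cacna1a-210 (549 bases) and the first of Cacna1e only on Cacna1e-207 (331 bases), while all other transcripts with either exon of these pairs hold the opposite one. The shares of these 2 genes therefore compare a short fragment with long transcripts, and do not measure use of the exons.

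**Figure D1:**
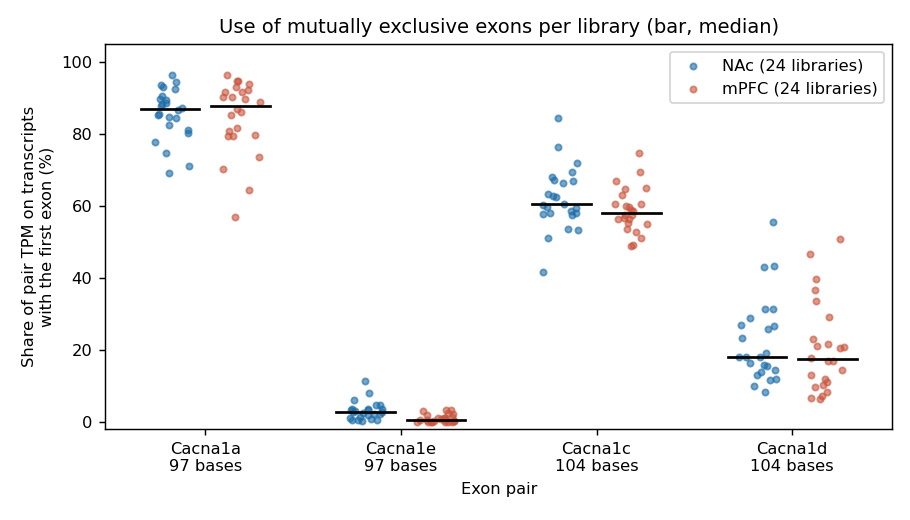
Share of the pair's TPM carried by transcripts with the first exon (%, y axis), for the exon pairs of 4 genes (x axis), with 1 point per library of the 4 populations, 24 in NAc and 24 labelled mPFC, and bars at the medians. Cacna1a points lie high (medians 86.9 and 87.8%) and Cacna1e points near 0 (2.83 and 0.592%), with Cacna1c and Cacna1d between them. In Cacna1a and Cacna1e, 1 exon of the pair lies only on a short transcript (549 and 331 bases).

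TPM divides by transcript length and so allows levels to be set side by side between genes. On this scale the R-type subunit Cacna1e (chr1:154266477-154760247, GRCm39, - strand) was highest in both regions, at a median of 239 TPM in NAc (range 167 to 356) and 285 TPM in mPFC (179 to 388). The P/Q-type subunit Cacna1a (chr8:85065224-85367997, + strand) followed with 235 TPM in NAc and 208 TPM in mPFC. Cacna1e exceeded Cacna1a in 20 of 24 NAc libraries and in 24 of 24 mPFC libraries, so these neighbours overlap in NAc.

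The third place differed by region. In NAc it was taken by the L-type subunit Cacna1c (chr6:118564201-119173851, - strand) at 91.3 TPM, and in mPFC by the T-type subunit Cacna1g (chr11:94299217-94365230, - strand) at 116 TPM, which exceeded Cacna1c there in 22 of 24 libraries. Next in NAc were the N-type subunit Cacna1b (chr2:24493899-24653221, - strand) at 78.5 TPM and the T-type subunit Cacna1i (chr15:80171436-80282482, + strand) at 74.4 TPM, which stood in that order in only 13 of 24 libraries and did not separate. Cacna1g followed at 50.2 TPM. The L-type subunit Cacna1d (chr14:29761896-30213412, - strand) had medians of 43.7 and 46.3 TPM. The T-type subunit Cacna1h (chr17:25593259-25652764, - strand) was last in both regions, at 30.2 TPM in NAc and 21.9 TPM in mPFC, and rested on few reads, from 36 to 2038 counts per library with a median of 189.5. With protein-coding transcripts alone the order was the same in NAc, and in mPFC Cacna1b and Cacna1c exchanged places. The levels fell unevenly, however. In NAc the medians were then 214 TPM for Cacna1e, 142 for Cacna1a, 77.0 for Cacna1b, 24.6 for Cacna1g and 19.45 for Cacna1d. The gene sums, and the class shares below, include short and non-coding transcripts.

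**Figure D2:**
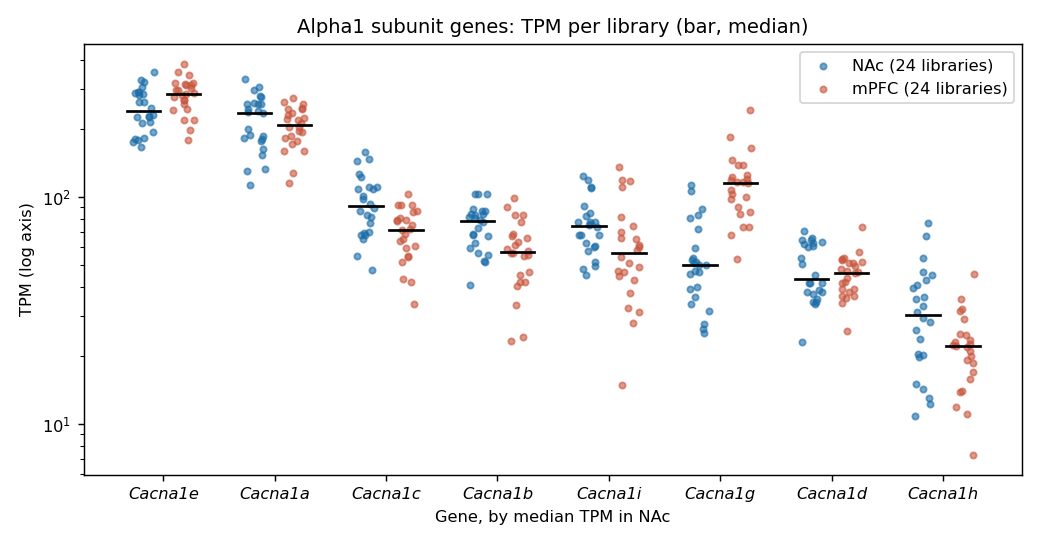
TPM per library (log y axis) of the 8 alpha1 genes (x axis, ordered by median in NAc), with 24 NAc and 24 mPFC-labelled libraries of the 4 populations and bars at the medians. Cacna1e and Cacna1a sit highest and Cacna1h lowest in both regions, and Cacna1g changes place between them (medians 50.2 and 116 TPM).

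By class, the P/Q-, N- and R-type genes held 63.9% ± 2.76 (SD, n = 24 libraries) of the summed TPM of the 8 genes in NAc and 63.5% ± 4.41 in mPFC. The L-type genes held 16.8% ± 1.82 and 13.5% ± 1.46, and the T-type genes 19.3% ± 3.42 and 23.0% ± 3.87. The mixture within the T-type genes was different in the 2 regions. Cacna1g made up 32.7% ± 7.51 of T-type TPM in NAc and 58.0% ± 10.2 in mPFC, while Cacna1i made up 46.8% ± 6.98 and 30.6% ± 10.6. The highest NAc library for Cacna1g (50.3%) lay above the lowest mPFC library (34.2%), so the regions overlapped.

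A single long transcript carried most of the reads for some genes and not for others. The leading transcript of Cacna1i, Cacna1i-202 (9781 bases), took a median of 71.8% of its counts in NAc, and Cacna1a-202 (7589 bases) took 59.8%. For Cacna1c, which has 26 annotated transcripts in the files, the first place went to Cacna1c-207 in NAc with 30.0% of counts and to Cacna1c-203 in mPFC with 28.1%. Protein-coding transcripts took a median of 99.95% of Cacna1b counts in NAc but 68.6% of Cacna1d counts. The largest other transcripts of Cacna1d were Cacna1d-208, annotated for nonsense-mediated decay (11.2%), and Cacna1d-212, with a retained intron (6.84%).

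NAc was compared with mPFC to learn whether the alpha1 genes differ between regions, on counts with edgeR's quasi-likelihood test and Benjamini-Hochberg adjustment over all genes tested, with a call at adjusted p under 0.05. Of the 8 genes, 6 were higher in NAc and 1 was lower, beside 48.5% of all 29788 genes called, 24.2% higher and 24.3% lower. The median log2 fold change was 0.59 over the 8 genes and -0.20 over all genes tested. Taking library size alone as the scale moved the median of all genes to -0.43, and relative to either median Cacna1g alone lay lower. These calls rest on libraries labelled mPFC, most of which had the low cortical markers given above, while medium spiny markers in them summed to 532 to 2724 CPM against 1702 to 4232 CPM in NAc. The part of cell content in the difference was not tested.

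Among the presynaptic channel genes, Cacna1a measured 341 to 448 CPM in the 24 NAc libraries (median 372) and 176 to 364 CPM in the 24 mPFC libraries (median 245). The ranges overlapped, although all 6 pools of mice were higher in NAc, and the log2 fold change was 0.62 ± 0.06 (SE, edgeR adjusted p = 2.2e-12). This size depends on the unit. On TPM the mean log2 difference of Cacna1a over the 6 pools was 0.07 ± 0.14 (SD), with 5 of 6 pools higher in NAc. Cacna1b measured 116 to 223 CPM in NAc and 41.1 to 235 CPM in mPFC, with a log2 fold change of 0.56 ± 0.11 (edgeR adjusted p = 5.5e-05). Only 4 of 6 pools were higher in NAc, and the 2 exceptions were male pools 1 and 2. Cacna1e, with medians of 746 CPM in NAc and 720 CPM in mPFC, was not called (log2 fold change 0.06 ± 0.06, edgeR adjusted p = 0.48). With library size alone as the scale it fell by 0.17 on the log2 scale with an adjusted p of 0.0032 (edgeR).

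Of the L-type genes, Cacna1c measured 153 to 310 CPM in NAc (median 258) and 103 to 186 CPM in mPFC (median 138). It was higher in NAc in 6 of 6 pools, by 0.90 ± 0.06 in log2 (edgeR adjusted p = 1.5e-16). On TPM its mean log2 difference over the 6 pools was 0.42 ± 0.19 (SD), again with 6 of 6 pools higher. Cacna1d, at 73.1 to 163 CPM in NAc and 65.8 to 159 CPM in mPFC, nearly coincided in range and was called at a log2 fold change of 0.26 ± 0.07 (edgeR adjusted p = 0.0014). Its call ended with library size alone as the scale (0.02, edgeR adjusted p = 0.76), without male pool 3 (0.16, adjusted p = 0.11) and without female pool 2 (0.18, adjusted p = 0.054).

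The T-type genes moved in different directions. Cacna1i measured 145 to 232 CPM in NAc (median 181) and 60.3 to 132 CPM in mPFC (median 88.7). On this scale the 2 regions did not overlap in any library, and the log2 fold change was 1.08 ± 0.07 (edgeR adjusted p = 2.1e-17). On TPM the regions overlapped, at 45.4 to 124 TPM in NAc and 14.9 to 136 TPM in mPFC. The mean log2 difference over the 6 pools was then 0.38 ± 0.65 (SD), with 5 of 6 pools higher in NAc. Cacna1h, at medians of 20.0 and 8.36 CPM, was higher in NAc by 1.06 ± 0.29 (edgeR adjusted p = 0.0023), a call that ended without male pool 3 (0.61, adjusted p = 0.13). Cacna1g was the gene that fell, from 55.1 to 245 CPM in mPFC (median 124) to 60.5 to 135 CPM in NAc (median 80), by 0.58 on the log2 scale (SE 0.11, edgeR adjusted p = 6.4e-05). It was lower in NAc in 5 of 6 pools. On TPM its mean log2 difference over the 6 pools was -1.11 ± 0.39 (SD), with 0 of 6 pools higher in NAc.

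The comparison was also restricted to male pools 1 and 3, the pools with the most cortical marker RNA in mPFC. This restriction was not planned and was chosen from marker levels in these same libraries. In it 3 of the 8 genes were called, beside 4.53% of all genes. These were Cacna1c and Cacna1i, higher in NAc, and Cacna1g, lower. The libraries are part of those compared above, so the shared directions are not separate evidence. Cacna1d turned to -0.10 (edgeR adjusted p = 0.85). In male pool 1 the cortical markers were higher in NAc than in mPFC (772 against 625 CPM), and in male pool 3 they were lower (409 against 791 CPM). In an exact sign-flip permutation test over the 6 pools, two-sided, Cacna1a, Cacna1c and Cacna1i each reached p = 0.03125, unadjusted, the smallest that 6 pools allow among 88 such tests. The other 4 genes called by edgeR did not reach it, at exact p = 0.0625 for Cacna1g, 0.125 for Cacna1h, 0.156 for Cacna1b and 0.281 for Cacna1d. The edgeR fit counts the 4 libraries of a pool and region as separate, although they came from the same mice.

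**Figure D3:**
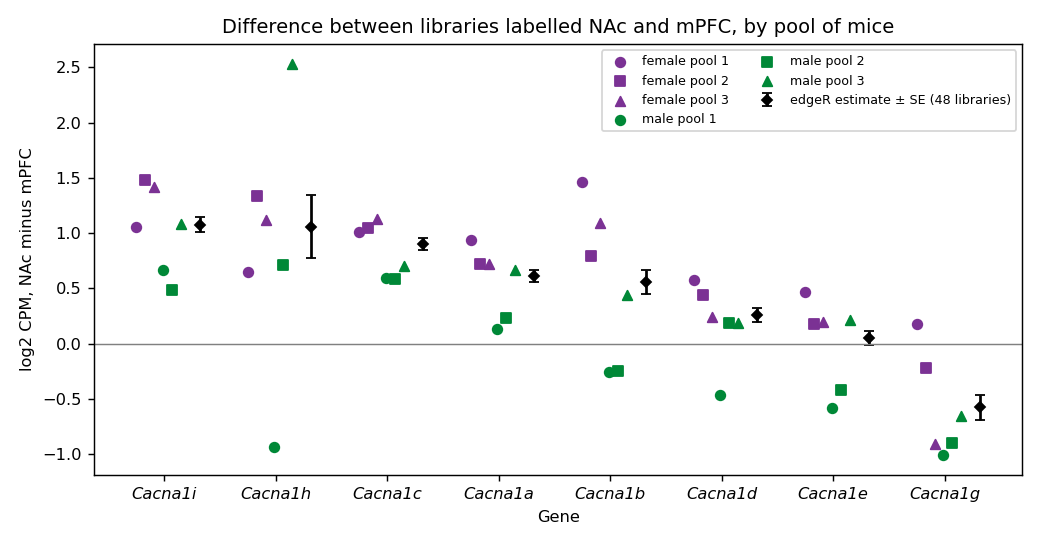
Difference in log2 CPM between libraries labelled NAc and mPFC (y axis) for each of the 8 genes (x axis), with 1 point per pool of 3 mice and, to the right of each set, the edgeR estimate with its SE over 48 libraries. Cacna1i, Cacna1c and Cacna1a points all lie above 0, and female pools lie higher than most male pools for Cacna1b and Cacna1e.

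Other calcium channel genes were counted from fixed lists. These counts stand beside the 24.2% of all genes called higher and 24.3% called lower. All 4 of the 4 beta subunit genes were higher in NAc, led by Cacnb3 (log2 fold change 1.12 ± 0.07), Cacnb1 (0.54 ± 0.06) and Cacnb2 (0.46 ± 0.07), with a list median of 0.50. Of 4 alpha2delta genes, Cacna2d3 (1.20 ± 0.14) and Cacna2d1 (0.76 ± 0.09) were higher and Cacna2d4 was lower (-0.34 ± 0.10). Of 8 gamma genes, which mostly encode auxiliary subunits of AMPA receptors, 4 were higher, led by Cacng7 (1.04 ± 0.07), Cacng2 (0.80 ± 0.06) and Cacng3 (0.62 ± 0.06), and 1 was lower. Of 12 channel partners, 9 were higher and 3 lower. Cabp1, a calcium-binding regulator of calcium channels, rose most in NAc (1.75 ± 0.09), followed by the active zone proteins Rims1 (0.84 ± 0.06) and Rimbp2 (0.56 ± 0.05). Of the 2 alpha1 genes best known from retina and skeletal muscle, Cacna1f was lower in NAc (-0.49 ± 0.16) and Cacna1s was not called. The pan-neuronal markers moved with these lists, with 9 of 10 higher in NAc and sums of 4031 to 7776 CPM against 1936 to 6564 CPM in mPFC, and their part was not tested.

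Cocaine-seeking neurons were compared with the non-ensemble in each region, over both sexes. None of the 8 genes was called by edgeR in NAc, where 0.145% of all genes were called, nor in mPFC, where 0.0901% were, none was called by DESeq2 or limma-voom, and none had an unadjusted p under 0.05 in either region. Outside Cacna1h, the log2 fold changes ran from -0.20 (Cacna1i) to 0.20 (Cacna1g) in NAc and from -0.17 (Cacna1i) to 0.06 (Cacna1d) in mPFC, with SEs of 0.09 to 0.26. In NAc, Cacna1i measured 157 to 218 CPM (median 177) in cocaine-seeking and 189 to 232 CPM (median 210) in non-ensemble libraries. It was lower in 6 of 6 pools, and a fit that blocked on the pool called it (-0.20, edgeR adjusted p = 0.030) together with 9.35% of all genes. Microglia markers were higher in the cocaine-seeking libraries, at sums of 228 to 298 against 119 to 189 CPM in NAc and 146 to 298 against 90.3 to 140 CPM in mPFC, and their part was not tested.

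Sucrose-seeking neurons differed more from the non-ensemble, and Cacna1d moved in both regions. In NAc, Cacna1d measured 73.4 to 117 CPM (median 100.5) in non-ensemble and 90.9 to 163 CPM (median 145) in sucrose-seeking libraries. The groups overlapped only through male pool 1, which had the lowest value in both, and 6 of 6 pools were higher in sucrose-seeking. The log2 fold change was 0.44 ± 0.14 (edgeR adjusted p = 0.016). In mPFC, Cacna1d measured 65.8 to 103 CPM (median 86.0) in non-ensemble and 95.3 to 159 CPM (median 118) in sucrose-seeking libraries, and was again higher in 6 of 6 pools, by 0.54 ± 0.11 (edgeR adjusted p = 0.0037). The call ended without female pool 3 in NAc (0.37, adjusted p = 0.11) and in mPFC (0.48, adjusted p = 0.056), and with counts rebuilt from TPM in NAc (0.44, adjusted p = 0.10) and mPFC (0.41, adjusted p = 0.11). In male pools 1 and 3 alone the mPFC difference was 0.45 (adjusted p = 0.36), in a fit that called 0.0156% of all genes.

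Cacna1i was the other gene called in NAc. It measured 189 to 232 CPM (median 210) in non-ensemble and 145 to 198 CPM (median 168) in sucrose-seeking libraries, lower in 6 of 6 pools with the ranges overlapping. On TMM-scaled counts it fell by 0.38 on the log2 scale (SE 0.11, edgeR adjusted p = 0.0087), but the sign depends on the unit, since counts rebuilt from TPM gave 0.47 (adjusted p = 0.052). Library size alone gave -0.14 (adjusted p = 0.17), and the call also ended without male pool 2 (adjusted p = 0.091), without female pool 1 (0.051) or without female pool 3 (0.086). In mPFC Cacna1i was not called (-0.20 ± 0.14, edgeR adjusted p = 0.37).

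Called in this comparison were 2 of 8 genes in NAc, 1 higher and 1 lower, beside 27% of all genes (11.2% higher and 15.8% lower). In mPFC 1 of 8 was called, and it was higher, beside 13% of all genes (6.61% higher). The median log2 fold change of the 8 genes was 0.01 in NAc and 0.13 in mPFC, against 0.20 and 0.12 over all genes tested. With library size alone the median of all genes moved to 0.45 and 0.23, and Cacna1d, at 0.69 and 0.65, stayed above it. With the pool block, Cacna1a (0.20, edgeR adjusted p = 0.034) and Cacna1c (0.22, adjusted p = 0.020) were also called higher in mPFC, beside 25.3% of all genes. On TPM, 8 of 8 genes had a positive mean difference over the 6 pools in each region. On TMM-scaled CPM 5 of 8 did, so the direction of Cacna1b, Cacna1h and Cacna1i depends on the unit. This was not confined to values near 0. In NAc, Cacna1i had a mean of -0.325 on CPM, with 0 of 6 pools higher, and of 0.726 on TPM, with 6 of 6 higher. In both units 1 was added to each value before the log. With a prior count of 2 instead, Cacna1h in mPFC also had a positive mean (0.03 in log2 CPM). Of the remaining genes, Cacna1h had the widest error in NAc (-1.40 ± 0.55, edgeR adjusted p = 0.060), and its value was 0.02 without female pool 3.

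**Figure D4:**
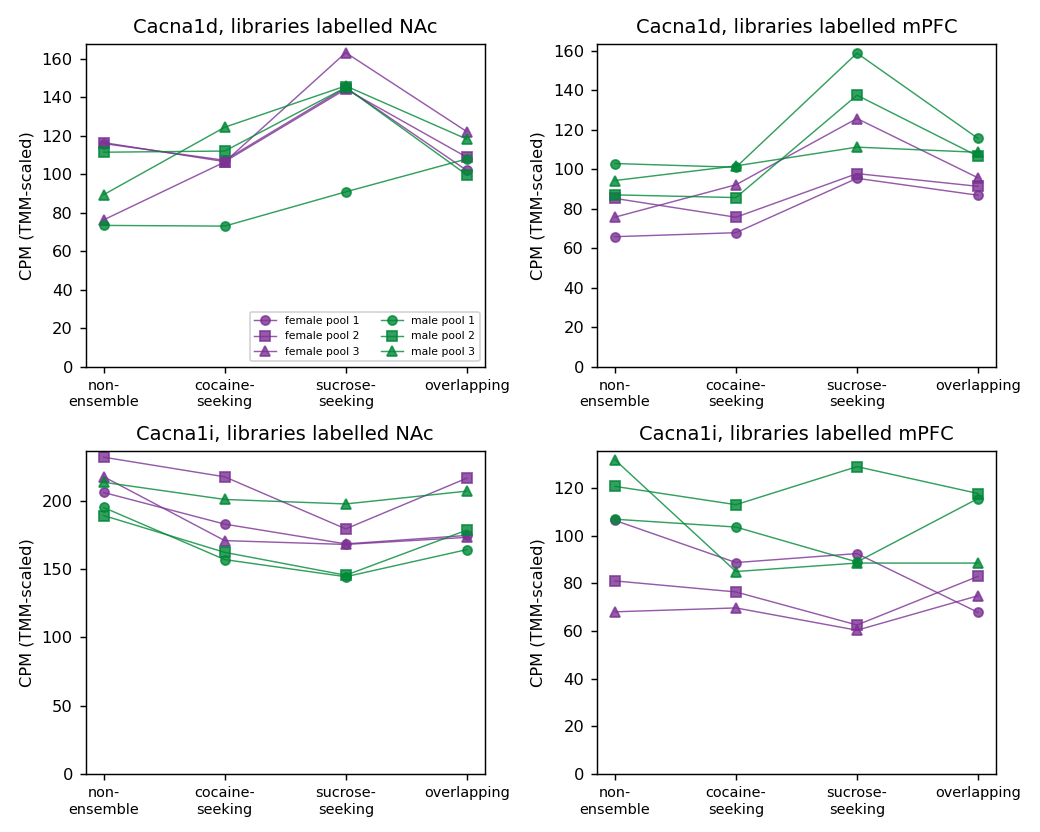
CPM scaled with TMM factors (y axis, from 0) of Cacna1d and Cacna1i in the 4 populations (x axis), with a line for each of the 6 pools of mice in libraries labelled NAc and mPFC. Cacna1d was higher in sucrose-seeking than in non-ensemble libraries in 6 of 6 pools in each region, and Cacna1i was lower in 6 of 6 pools in NAc, a direction that turned with counts rebuilt from TPM.

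Auxiliary subunits and partners were counted in the same libraries, where 27% of all genes were called in NAc (15.8% lower) and 13% in mPFC. In NAc, 3 of 4 beta genes fell in sucrose-seeking neurons, namely Cacnb3 (-0.65 ± 0.12), Cacnb4 (-0.52 ± 0.10) and Cacnb1 (-0.56 ± 0.11). Of 8 gamma genes 5 fell, among them Cacng7 (-0.54 ± 0.11), Cacng2 (-0.53 ± 0.12) and Cacng8 (-0.47 ± 0.12). Of 12 partners 7 fell, led by the calmodulin gene Calm3 (-0.85 ± 0.13), the anchoring protein gene Akap5 (-0.90 ± 0.14) and Calm2 (-0.76 ± 0.12), and Cacna2d4 was higher (0.62 ± 0.21). In mPFC 1 of 4 beta genes (Cacnb4, -0.52 ± 0.15), 1 of 8 gamma genes (Cacng2, -0.49 ± 0.12) and 4 of 12 partners fell, among them Akap5 (-0.94 ± 0.14), Calm2 (-0.80 ± 0.14) and Calm3 (-0.78 ± 0.15). The list medians in NAc were -0.54 for beta, -0.45 for gamma and -0.46 for partners, against 0.01 for the 8 alpha1 genes. Whether the alpha1 genes differ from these lists was not tested.

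Several measures of the libraries moved with sucrose-seeking. The summed pan-neuronal markers were 4031 to 5328 CPM in sucrose-seeking and 6540 to 7776 CPM in non-ensemble NAc libraries, with 10 of 10 markers called lower. The summed endothelial markers were 90.0 to 239 CPM against 55.8 to 107 CPM, with 6 of 6 called higher, as were 5 of 6 pericyte and smooth muscle markers, while 6 of 6 astrocyte markers were called lower. Olfactory, vomeronasal and taste receptor genes took 2.10 to 4.03% of counts against 1.05 to 1.99%. The summed activity genes, which include immediate early genes, averaged 258 CPM in sucrose-seeking and 337 CPM in non-ensemble NAc libraries, and 305 against 427 CPM in mPFC, although the sucrose-seeking cells were sorted as cFos+. Of 8 activity genes, 2 were called lower in NAc, and 1 was called higher and 1 lower in mPFC. Among genes of 5000 bases or more in effective length, the median change in log2 was 0.45 in NAc and 0.33 in mPFC. The part of any of these in the values of Cacna1d, Cacna1i and the auxiliary subunits was not tested.

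**Figure D5:**
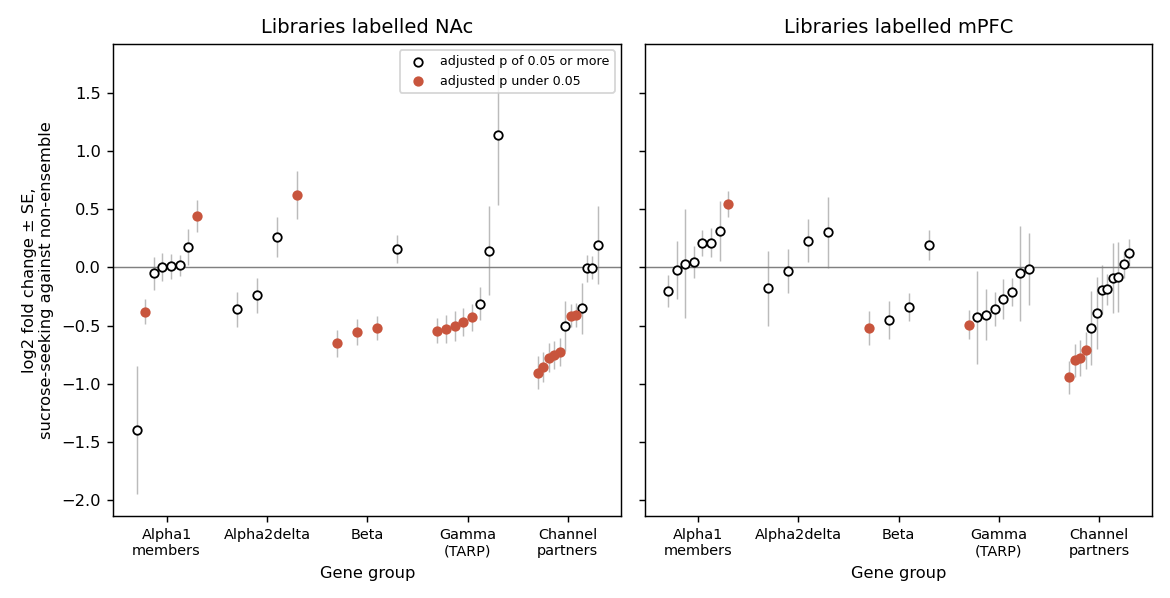
Log2 fold change with SE (y axis) of sucrose-seeking against non-ensemble libraries for each gene of 5 groups (x axis), in libraries labelled NAc and mPFC, with filled points for adjusted p under 0.05 in edgeR. Beta, gamma and partner genes lie mostly below 0, and the alpha1 genes spread around 0 with Cacna1d highest (0.44 in NAc and 0.54 in mPFC).

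Cocaine-seeking and sucrose-seeking neurons were compared directly. None of the 8 genes was called by edgeR in NAc, beside 5.29% of all genes, or in mPFC, beside 0.416%, and 1 gene in each region, Cacna1d, had an unadjusted p under 0.05. DESeq2 called Cacna1d in NAc (-0.36, adjusted p = 0.048) and mPFC (-0.44, adjusted p = 0.0088), and limma-voom called it in mPFC (-0.48, adjusted p = 0.046). In NAc, Cacna1d measured 73.1 to 125 CPM (median 107) in cocaine-seeking libraries against the 90.9 to 163 CPM above, and was lower in 6 of 6 pools (-0.33 ± 0.14, edgeR adjusted p = 0.17). In mPFC it measured 67.8 to 102 CPM (median 88.8) and was again lower in 6 of 6 pools (-0.48 ± 0.11, edgeR adjusted p = 0.057). With the pool block Cacna1d was called lower in NAc (-0.33, edgeR adjusted p = 0.030) and mPFC (-0.48, adjusted p = 3.7e-04), and Cacna1i was called higher in NAc (0.19, adjusted p = 0.032). That fit called 15% and 5.56% of all genes. Microglia markers summed to 228 to 298 CPM in cocaine-seeking and 95.8 to 151 CPM in sucrose-seeking NAc libraries, and to 146 to 298 against 76.3 to 103 CPM in mPFC, with no overlap in either region. Pan-neuronal markers averaged 5980 against 4659 CPM in NAc and 3776 against 3259 CPM in mPFC. The part of these markers was not tested. Of the other lists, 5 of 12 partners, led by Calm3 (0.52 ± 0.13), Stac2 (0.50 ± 0.12) and Calm2 (0.47 ± 0.12), and 1 of 8 gamma genes, Cacng7 (0.37 ± 0.11), were higher in cocaine-seeking NAc neurons, and none was called in mPFC.

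Between overlapping neurons and the non-ensemble, edgeR called none of the 8 genes in NAc (1.97% of all genes) or mPFC (0.568%), with 1 unadjusted p under 0.05 in NAc (Cacna1h) and 2 in mPFC (Cacna1d and Cacna1h). DESeq2 called Cacna1h in NAc (-1.99, adjusted p = 0.034) and 0 genes in mPFC, and limma-voom called 0 in either. Cacna1d in mPFC measured 86.7 to 116 CPM (median 101) against 65.8 to 103 CPM, a log2 fold change of 0.27 ± 0.11 with an edgeR adjusted p of 0.21, and it was called with the pool block (0.27, adjusted p = 0.019). In NAc it measured 99.7 to 122 CPM (median 109), with a log2 fold change of 0.18 ± 0.14 (edgeR adjusted p = 0.46). Cacna1h was low and scattered, at 4.61 to 51.3 CPM in NAc (median 7.24) and 3.67 to 14.8 CPM in mPFC (median 4.99). Its log2 fold changes of -1.98 ± 0.57 (edgeR adjusted p = 0.062) and -1.28 ± 0.49 (0.17) were called with the pool block (-1.74, adjusted p = 0.028 and -1.17, adjusted p = 0.024), as was Cacna1i in NAc (-0.18, adjusted p = 0.044). Without female pool 3 the unblocked Cacna1h value in NAc was -0.61. The block called 16% of all genes in NAc and 14.4% in mPFC. Microglia markers summed to 273 to 398 CPM in overlapping and 119 to 189 CPM in non-ensemble NAc libraries, and to 230 to 322 against 90.3 to 140 CPM in mPFC, and their part was not tested. Of the partner genes, Calm2 (-0.53 ± 0.12) fell in overlapping NAc neurons, and Akap5 (-0.63 ± 0.14) and Calm2 (-0.61 ± 0.14) in mPFC. Between cocaine-seeking and overlapping neurons 0 of the 8 genes and 0% of all genes were called by edgeR in either region, and 0 of the 8 by DESeq2 or limma-voom, with 1 unadjusted p under 0.05 among the 8 genes in NAc (Cacna1h, 1.31 ± 0.57) and 0 in mPFC. Outside Cacna1h, the log2 fold changes ran from -0.22 to 0.06. By pool, Cacna1a in NAc and Cacna1d, Cacna1e and Cacna1g in mPFC were lower in cocaine-seeking in 6 of 6 pools (exact sign-flip permutation test, p = 0.03125 each, unadjusted, among the 88 tests), by means of 0.09 to 0.24 in log2 CPM. The same exact p holds in every comparison where 6 of 6 pools share a sign. Among these were also Cacna1a in NAc for cocaine-seeking against sucrose-seeking (mean -0.15) and Cacna1g in mPFC for overlapping against non-ensemble (mean 0.24).

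Within each sex, the cocaine-seeking population was compared with the other populations in 12 fits of 3 against 3 libraries. In the 96 tests of the 8 genes, 0 were called by edgeR (lowest adjusted p = 0.16) and 5 had an unadjusted p under 0.05, beside 0.363% and 0.00781% of all genes for female NAc against sucrose-seeking and non-ensemble, 0.0118 to 0.0241% for the other fits against sucrose-seeking, and 0% elsewhere. For the 15 differences of a population contrast between sexes or between regions, 0 tests of the 8 genes were called (lowest adjusted p = 0.95) and 2 had an unadjusted p under 0.05. These fits called 0 to 0.00693% of all genes. By contrast, the region difference itself, on TMM-scaled counts, was larger in females for 6 of the 8 genes, beside 38.7% of all genes called (22.7% larger in females), a comparison added after seeing the data. That test counted the libraries of a pool as separate and was not repeated over pools.

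The naive libraries were set beside the non-ensemble, with the caution that they were sequenced more deeply and that their meaning was not given. The tables of the male naive libraries print read numbers with more decimals than all others, and whether one Salmon run made them all was not stated. In NAc 1 of 8 genes was called, and it was lower, beside 18% of all genes (8.33% lower). Without female pool 3, 4 of 8 were called, a count given without the share of all genes called in that fit. Cacna1g measured 45.3 to 66.3 CPM (median 52.5) in naive and 63.2 to 96.7 CPM (median 69.7) in non-ensemble libraries, overlapping only at the edge, and was lower in naive by a log2 fold change of -0.62 ± 0.12 (edgeR adjusted p = 0.0035). In mPFC 3 of 8 genes were called, 2 higher and 1 lower, beside 34.7% (14.9% higher and 19.9% lower). Cacna1i measured 127 to 265 CPM (median 147) in naive and 68.1 to 132 CPM (median 107) in non-ensemble libraries (0.55 ± 0.14, edgeR adjusted p = 0.0067).

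Cacna1h in mPFC measured 13.6 to 96.3 CPM (median 65.0) in naive against 2.59 to 45.0 CPM (median 12.4) in non-ensemble libraries, with overlap, and was higher by 1.51 ± 0.44 (edgeR adjusted p = 0.015), a call that ended without female pool 2 (0.75, adjusted p = 0.12). Cacna1d was lower in naive mPFC (-0.34 ± 0.11, edgeR adjusted p = 0.030), a call that ended under DESeq2 (adjusted p = 0.053) and when any pool but female pool 1 was left out. With the replicate number as a block, Cacna1a (0.26, adjusted p = 0.033) and Cacna1e (-0.32, adjusted p = 0.024) were also called in mPFC, beside 34.5% of all genes. Cortical excitatory markers summed to 409 to 2345 CPM in the naive mPFC libraries against 121 to 1029 CPM in the non-ensemble, with 8 of 8 called higher, and their part was not tested. Of the other lists in naive NAc, 2 of 4 alpha2delta genes (Cacna2d1, 0.49 ± 0.13), 1 of 4 beta genes (Cacnb1, 0.37 ± 0.11), 2 of 8 gamma genes (Cacng4, 0.68 ± 0.09) and 4 of 12 partners (Calm2, 0.62 ± 0.11) were higher, and 1 partner was lower. In naive mPFC 1 alpha2delta gene (Cacna2d1, 0.94 ± 0.20), 2 beta genes (Cacnb3, 1.09 ± 0.15), 3 gamma genes and 8 partners (Rims1, 1.10 ± 0.16) were higher, and 1 alpha2delta gene, 2 gamma genes (Cacng5, -1.47 ± 0.27) and 1 partner were lower.

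The genes most like each member were taken as the 3 protein-coding genes, of 10804 with a mean of at least 10 CPM, with the highest Pearson correlation of log2 CPM over the 48 libraries, which share pools, depth and region. Cacna1i and Cacna1c had the closest companions, Fry (r = 0.96), Rgs7bp (0.96) and Kcnq3 (0.96) for Cacna1i, and Erc2 (0.95), Speg (0.95) and Zfyve28 (0.95) for Cacna1c. Cacna1a was nearest to Adgrb1 (0.95), Sptbn4 (0.94) and Adgrl3 (0.93), and Cacna1d to Rbm33 (0.92), Cplane1 (0.91) and Mdn1 (0.91). For Cacna1g they were Cpne7 (0.89), Clmn (0.89) and Map4k3 (0.89), for Cacna1e Ntrk3 (0.88), Plekha6 (0.86) and Osbpl6 (0.86), and for Cacna1b Gak (0.87), Mycbp2 (0.87) and Herc1 (0.86). Cacna1h had no close companion, with Rnpep, Parg and Marchf2 all at 0.62. Among the members themselves Cacna1c and Cacna1i were most alike (r = 0.90), and Cacna1g ran against both (-0.45 and -0.45).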

How the data were processed

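Per the labels and the study's methods, reads were trimmed with cutadapt and quantified by Salmon against the GRCm39 transcriptome, in versions that no source here gives. The labels name polyA RNA and the methods a ribosome-depleted low-input library. The authors deposited, per transcript, estimated counts and TPM. Of 117209 transcripts, 116085 matched GENCODE vM39 by ID and were summed to 35889 genes, and 0.932 to 7.10% of counts fell on unmatched transcripts. Fractional counts were rounded. Groups came from sample titles. The description fields disagree with the titles for all male mPFC libraries, described as female NAc, and all female NAc libraries, described as male mPFC, and the sex field reads female for sucrose-seeking and overlapping male mPFC pool 3. The Ddx3y levels followed the titles except in female pool 2. The 8 genes, the lists and the markers were chosen with earlier results of these data known.

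Gene counts were tested in edgeR 4.0.16 (R 4.3.3) by quasi-likelihood F-tests, with TMM scaling and filterByExpr, by group. The fits covered 48 libraries for region, 24 per region for populations, 12 per region and sex, and 12 per region for naive. All 8 genes passed the filter in every fit. The difference of the region contrast between sexes was added after seeing the data, and the restriction to male pools 1 and 3 was not planned. Alternatives included DESeq2 1.42.0 and limma 3.58.1. All populations of a numbered pool were sorted from the same 3 mice, so the numbers pair the libraries. The mean correlation of deviations from group means was 0.067 to 0.149 between libraries of the same pool and -0.074 to -0.033 otherwise. Because group means were subtracted, a positive first mean forces the second below 0, so the gap between them is partly arithmetic. The correlations were taken within a region and sex, and cannot show whether NAc and mPFC pools of the same number share mice. For naive libraries, shared mice are not stated. Counts were also simulated, independently for each library, with the same spread setting for all genes and no tie between libraries of a pool. In each comparison 100 genes were changed by each amount, so the shares called are those of this setting and not of the real libraries. Log2 changes of 0.5 and 1 were called in 94% and 100% of changed genes between regions, over 27023 genes. For sucrose-seeking against non-ensemble they were called in 8% and 88% in NAc and in 12% and 88% in mPFC. For cocaine-seeking against non-ensemble in female NAc they were called in 2% and 37%. A population comparison without a call therefore does not show that changes of 0.5 are absent. No replicate pair agreed within sampling noise. Whether pools were independent of one another beyond different mice was not stated, so p-values measure the spread between these libraries. All 8 genes were named. Of each other list, the 3 genes with the smallest adjusted p were named if called, and for naive the 1 with the smallest adjusted p, a narrowing made after its values were seen. The values of 1 partner gene are not reported here, and the next gene by adjusted p was named in its place. The effect of the alternatives, including rebuilt counts from TPM, library size as the scale, no filter and each pool left out, is given below.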

Additional observations from a re-analysis of the deposited data

Results flagged for a closer look

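The NAc minus mPFC difference of 6 of the 8 genes was larger in female than in male pools by a test of the difference itself, a comparison added after seeing the data (edgeR, adjusted p under 0.05, beside 38.7% of all genes). The log2 excess in females was 1.12 ± 0.22 for Cacna1b (SE, edgeR adjusted p = 1.4e-04), 0.61 ± 0.13 for Cacna1i (3.4e-04), 0.59 ± 0.13 for Cacna1e (4.4e-04), 0.49 ± 0.11 for Cacna1a (5.5e-04), 0.47 ± 0.13 for Cacna1d (0.0043) and 0.46 ± 0.12 for Cacna1c (0.0019). That fit counts the 4 libraries of a pool and region as separate, although they came from the same mice. No test between the female and male pools themselves was run. By pool, the sexes did not overlap for Cacna1a, Cacna1b, Cacna1c and Cacna1d. They overlapped for Cacna1i (male pool 3 at 1.08, female pool 1 at 1.06) and Cacna1e (male pool 3 at 0.215, female pools 2 and 3 at 0.179 and 0.195). The groups behind the female excess lie mainly in mPFC. Cacna1b averaged 95.0 ± 33.5 CPM (SD, n = 12) in female and 178 ± 39.3 CPM in male mPFC libraries, against 195 ± 27.5 and 174 ± 30.0 CPM in NAc. The TMM factors behind these CPM were 1.11 to 1.35 in female and 0.931 to 1.18 in male mPFC libraries. With library size alone as the scale, Cacna1b averaged 115 CPM in female and 184 CPM in male mPFC libraries. Cacna1a then averaged 264 and 313.5 CPM (TMM-scaled 215.5 and 302), and Cacna1i 95.2 and 111.5 CPM (77.6 and 107.5). The female excess was not tested on that scale. Pan-neuronal markers averaged 2405 to 3573 CPM in the 3 female mPFC pools and 4468 to 5545 CPM in the 3 male ones, and cortical excitatory markers 112 to 170 CPM against 122.5, 625 and 791 CPM. The part of these markers in the sex difference was not tested. Female pool 2 held the Y-linked gene Ddx3y at 14.4 CPM in NAc and 15.4 CPM in mPFC, and the sex difference was not tested without it. The sexes follow the sample titles, while the description fields call the female NAc libraries male mPFC and the male mPFC libraries female NAc.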

How the results depend on the processing

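With the study's thresholds (adjusted p under 0.01 and absolute log2 fold change over 0.75), 3 of the 8 genes were called between regions, and 0 for sucrose-seeking against non-ensemble and 0 for naive in either region. Male pools alone called 4 between regions and male pools 1 and 3 alone called 3. Cacna1b was -0.035 and Cacna1d -0.013 in male pools, and Cacna1d was -0.10 in male pools 1 and 3, where 0 genes were called for sucrose-seeking in mPFC. Counts rebuilt from TPM called 4 genes for sucrose-seeking in NAc and turned Cacna1i to 0.47. Library size alone called 4 there and 2 in mPFC, and 1 in each region for cocaine-seeking against sucrose-seeking, as did DESeq2 (1 in each) and, in mPFC, limma-voom (1). DESeq2 also called 1 for overlapping in NAc. Leaving out each pool in turn gave 5 to 7 genes between regions, 0 to 3 and 0 to 1 for sucrose-seeking in NAc and mPFC, 0 to 1 for overlapping in NAc, and 1 to 4 and 1 to 3 for naive in NAc and mPFC. Except for male pools 1 and 3, the share of all genes called under each of these settings is not given beside the counts. The counts therefore show how calls depend on the setting, and are not results about the 8 genes. On CPM instead of TPM, each with 1 added before the log, 5 genes in NAc and 5 in mPFC were higher in sucrose-seeking. With protein-coding transcripts alone Cacna1b ranked 4 and Cacna1c 5 in mPFC.

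With the pool as a replicate block, the number of genes called rose to 1 for cocaine-seeking and 2 for overlapping against non-ensemble in NAc, 2 for cocaine-seeking against sucrose-seeking in NAc and 1 in mPFC, 3 for sucrose-seeking and 2 for overlapping in mPFC. For naive libraries, which share only a replicate number with the pools, that number as a block called 5 in mPFC. Within a sex the block called 1 in female NAc and 1 in female mPFC for cocaine-seeking against sucrose-seeking, and 1 in male mPFC against non-ensemble. These counts within a sex are likewise given without the share of all genes called. Population comparisons share the non-ensemble libraries, and the sorted ensembles differ in tag as well as in reward. Few reads limit Cacna1h. The causes of these changes were not tested.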
